A study of Mus musculus with 15 samples.

Results

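Whole-liver RNA of mice lacking the kinase JNK1 in all their cells (Jnk1 KO) was compared with that of wild-type mice whose NEMO gene is floxed and intact (NEMO f/f). All 3 arrays labelled Jnk1 KO and all 3 labelled NEMO f/f were taken, which are 6 of the 15 arrays of the study, and 19938 genes were compared. The other 9 arrays come from Jnk2 KO livers and from livers that lack NEMO in hepatocytes together with JNK1 (NEMO/Jnk1 DKO) or JNK2 (NEMO/Jnk2 DKO), with 3 arrays in each group. All mice are labelled C57BL/6, male and 8 weeks old, although 3 arrays went against the label as male, and each array carries the RNA of a different mouse. The Jnk1 deletion is constitutive, so a difference can arise in any liver cell or outside the liver, and the labels do not say whether the Jnk1 KO mice also carry floxed NEMO. In the double knockouts NEMO is deleted through Alb-cre, which is active in hepatocytes.

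JNK1 and JNK2 are stress-activated protein kinases encoded by Mapk8 and Mapk9. Upstream kinases phosphorylate them after cytokine, oxidative or nutrient stress, and they in turn phosphorylate c-Jun and related members of the AP-1 family of transcription factors. In the liver this pathway is known for its part in hepatocyte death, proliferation and metabolic control. Ikbkg encodes NEMO, a scaffold that the IkB kinases need to switch on NF-kB.

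Levels are log2 values of Affymetrix whole-transcript arrays, differences are log2 differences (Jnk1 KO minus NEMO f/f) with their standard error (SE) from limma, and a gene passed the test at an adjusted p under 0.05. Jnk1 KO replicate 1 stood apart from the other 5 arrays of the comparison. It had 730 genes more than 1 log2 unit away from the NEMO f/f mean, against 56 and 41 genes in replicates 2 and 3. Among the NEMO f/f arrays, each set against the mean of the other two, these counts were 34, 45 and 48. In replicate 1, Ly6d stood at 10.12 and Mmp12, a macrophage elastase, at 8.66. Replicates 2 and 3 had Ly6d at 4.76 and 5.03 and Mmp12 at 3.72 and 3.94, within or just below the NEMO f/f ranges of 4.67 to 5.06 and 3.83 to 4.88. The double knockout arrays held Ly6d at 7.88 to 10.48 and Mmp12 at 7.54 to 8.96. Replicate 1 also went against its label as male: Xist, the RNA of the inactive X chromosome, stood at 8.68 there and at 2.59 to 2.82 in the other 5 arrays. The Y-linked genes Eif2s3y, Kdm5d and Uty stood at 2.55, 3.08 and 2.92 in the same array, against 6.08 or more in the other 5. NEMO/Jnk1 DKO replicates 1 and 2 went against the label in the same way, with Xist at 9.17 and 9.08 and Eif2s3y at 2.46 and 2.99, so 3 of the 15 arrays had this pattern. Differences are given as labelled and for Jnk1 KO replicates 2 and 3 alone. Where only array levels are given the last 2 Jnk1 KO values are those of these arrays. The split was chosen because Ly6d, Mmp12 and Ikbkg in replicate 1 resemble the double knockouts. These values are therefore not separate support for it.

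Mapk8, the deleted gene, stood at 6.06, 6.23 and 6.12 in the Jnk1 KO arrays and at 6.98, 7.02 and 7.03 in the NEMO f/f arrays. The groups did not overlap, and the library labelled Jnk1 KO replicate 1 was as low as its group. The difference of -0.87 (SE 0.14, 95% interval -1.18 to -0.56) missed the threshold across all genes (limma adjusted p = 0.167), and without replicate 1 it was -0.83 (SE 0.16, adjusted p = 0.571). The signal that remained is a probe set value over the transcript, and which part of it is deleted is not given in the sources used here. Mapk9 lay at 7.43 to 7.61 in Jnk1 KO and at 7.41 to 7.65 in NEMO f/f. Its difference was 0.06 (95% interval -0.28 to 0.39), and 0.03 without replicate 1 (95% interval -0.35 to 0.41). Ikbkg stood at 6.75, 7.17 and 7.18 in Jnk1 KO replicates 1 to 3 and at 7.20, 7.15 and 7.41 in NEMO f/f, a difference of -0.22, and of -0.08 without replicate 1. Replicate 1 was below the other 5 arrays and inside the range of the double knockouts, which was 6.18 to 6.85, although its label gives no NEMO deletion. Ikbkg was among the genes by which replicate 1 was singled out, so this is not a separate result. Jnk2 KO replicate 3, whose label gives no NEMO deletion either, stood lower still at 6.24.

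**Figure D1:**
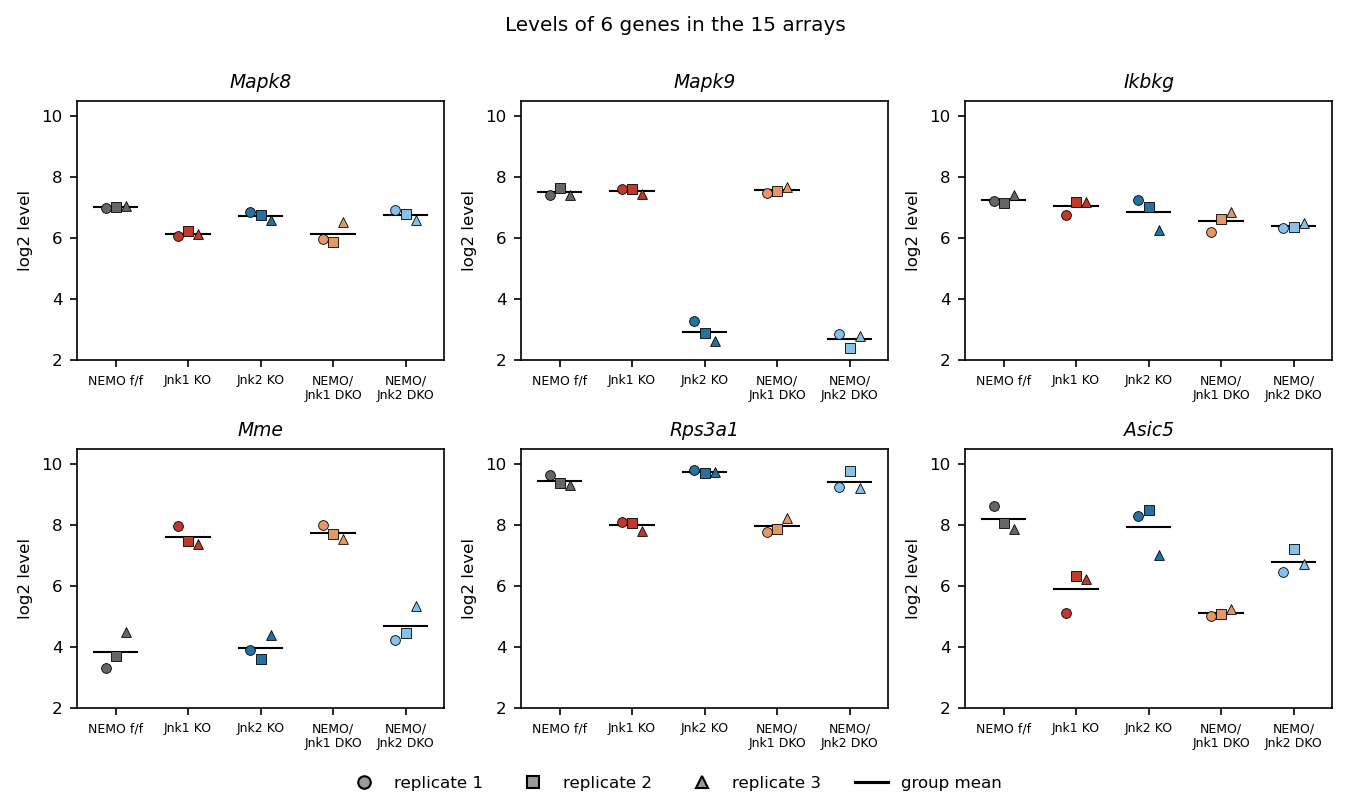
Log2 level (vertical axis) of Mapk8, Mapk9, Ikbkg, Mme, Rps3a1 and Asic5 in each of the 15 arrays, by group (horizontal axis), with the group mean as a bar. Mme is between 7.39 and 8.00 in the 6 Jnk1-null arrays and at 5.35 or below in the 9 others, and Rps3a1 shows the opposite order.

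Only Mme and Rps3a1 passed the test, Mme higher and Rps3a1 lower in Jnk1 KO, which is 0.01% of the 19938 genes. The same genes passed without replicate 1 (again 0.01%). At an unadjusted p under 0.05, 321 genes were higher (1.61%) and 792 lower (3.97%) as labelled. Without replicate 1 there were 283 higher (1.42%) and 572 lower (2.87%), and 462 genes had such a p in both settings. The balance of these loose counts moved with the scaling of the arrays. The share of higher genes was 28.8% as deposited, 42.4% after a further quantile normalization and 25.6% after centring each array on its median. Without replicate 1 it was 33.1%, 51.6% and 50%.

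Mme encodes neprilysin (CD10), a membrane-bound zinc peptidase that degrades signalling peptides outside the cell. Its level was 7.98, 7.46 and 7.39 in Jnk1 KO replicates 1 to 3 and 3.32, 3.71 and 4.47 in NEMO f/f. Every Jnk1 KO array was far above every control, and replicate 1, the array that stood apart, was close to the other 2. The log2 difference was 3.78 (SE 0.32, 95% interval 3.09 to 4.46, adjusted p = 0.00028), a 13.7-fold difference of the array signal. Without replicate 1 it was 3.59 (SE 0.35, 95% interval 2.85 to 4.34, adjusted p = 0.00183), 12.1-fold. The control values 3.32 and 3.71 lie below 4.10, under which 40% of the values of probe sets with 1 gene symbol lay. Both folds therefore rest on a low control signal. A fit to the 6 compared arrays alone, which leaves fewer arrays to estimate the spread, kept the difference but gave an adjusted p of 0.0547. Over the 15 alternatives run for all 3 arrays the difference ranged from 3.52 to 4.10 and the adjusted p from 0.000104 to 0.0547.

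Mice outside the comparison showed the same order for Mme. The NEMO/Jnk1 DKO arrays stood at 8.00, 7.71 and 7.53 and the NEMO/Jnk2 DKO arrays at 4.22, 4.45 and 5.35. These groups share no array with Jnk1 KO or NEMO f/f, and their difference of 3.07 (SE 0.32) passed the test (adjusted p = 0.000792), where 0.105% of all genes did. The first 2 of these NEMO/Jnk1 DKO arrays have the female pattern and no NEMO/Jnk2 DKO array has it. With a term for that pattern, added after the data were seen, the difference was 2.78 (SE 0.38, adjusted p = 0.0154). That term draws on Jnk1 KO replicate 1 as well. Without Jnk1 KO replicate 1 the same fit rests on NEMO/Jnk1 DKO replicate 3 (7.53) alone and gave 2.86 (SE 0.45), which missed the threshold (adjusted p = 0.0733). Jnk2 KO arrays held Mme at 3.88, 3.61 and 4.39. Against them Jnk1 KO was higher by 3.65 (SE 0.32, adjusted p = 0.000119, with 0.13% of all genes passing), a comparison that uses the Jnk1 KO arrays again. Of 13 measured genes in the list of neprilysin relatives and other ectopeptidases, Mme alone passed, and the median difference of the list was -0.04 beside -0.03 over all genes. Ece1, an endothelin-converting enzyme of the same family, stood at 8.75 to 8.84 in Jnk1 KO and 8.72 to 9.06 in NEMO f/f. The aminopeptidases Enpep and Anpep stood at 8.31 to 8.76 against 8.68 to 9.0 and at 8.11 to 8.45 against 8.23 to 8.54. As labelled the ranges of these 3 genes overlap. Without replicate 1 Enpep, at 8.31 and 8.59, was below every control (-0.38, SE 0.16), where 12.2% of all genes lay lower without overlap. Ace, angiotensin-converting enzyme, stood at 4.16 to 4.19 against 3.97 to 4.08, a difference of 0.16 (SE 0.08, adjusted p = 0.86) and of 0.15 without replicate 1.

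The start region of Mme is shown because Mme was the only gene that passed the test in the higher direction and because AP-1, the family of factors downstream of JNK, binds a short known motif. RefSeq's promoter table gives 3 start windows for Mme, each 300 bases long, from 250 before to 50 after a transcript start (build GRCm38.p6, plus strand). The second, chr3:63295622-63295921, holds a match to the AP-1 motif TGANTCA, printed in capitals.
Mme: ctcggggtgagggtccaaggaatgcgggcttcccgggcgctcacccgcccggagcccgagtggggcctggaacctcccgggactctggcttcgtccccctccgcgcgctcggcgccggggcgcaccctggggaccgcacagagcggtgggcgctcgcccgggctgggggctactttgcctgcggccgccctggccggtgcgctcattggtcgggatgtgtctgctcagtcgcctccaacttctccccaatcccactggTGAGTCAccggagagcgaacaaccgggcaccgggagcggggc
The motif reads the same pattern on both strands. It was found in 2565 of 32851 windows in the table (7.81%), so a match is not rare. The CRE motif TGACGTCA was found in no Mme window, against 1.79% of all windows. The first window, which begins at position 63294961, holds neither motif. The third, chr3:63295845-63296144, overlaps the second and holds the same AP-1 match. The arrays do not tell from which start the Mme transcripts came, and a match is a description of the letters only.

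Rps3a1 encodes a protein of the small ribosomal subunit. Its probe set stood at 8.10, 8.06 and 7.80 in Jnk1 KO and at 9.63, 9.37 and 9.32 in NEMO f/f, again without overlap. The difference was -1.46 (SE 0.16, 95% interval -1.79 to -1.12, adjusted p = 0.00256), a 2.74-fold lower signal, and without replicate 1 it was -1.51 (SE 0.18, adjusted p = 0.00786). NEMO/Jnk1 DKO arrays stood at 7.76, 7.88 and 8.22 and NEMO/Jnk2 DKO arrays at 9.24, 9.77 and 9.21, a difference of -1.45 (SE 0.16, adjusted p = 0.000863). With the sex term it was -1.38 (SE 0.19, adjusted p = 0.0175), and with Jnk1 KO replicate 1 also left out -1.19 (SE 0.20), which missed the threshold (adjusted p = 0.125). Over the 15 alternatives with all 3 arrays the adjusted p ranged from 0.00081 to 0.0705, the highest in the fit to only the compared arrays. Without replicate 1 it passed in 12 of 14 alternatives and was lost when replicate 2 or replicate 3 was left out as well (adjusted p up to 0.0701).

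The identity of the transcript behind this value is uncertain. The probe set that passed lists 1 accession, whereas 2 further probe sets that carry the symbols Rps3a1 and Tapbp list 8 each. Those read 10.40, 10.22 and 10.18 in Jnk1 KO against 10.58, 10.76 and 10.57 in NEMO f/f (-0.37, SE 0.09, adjusted p = 0.397), and 10.32, 10.15 and 10.08 against 10.38, 10.62 and 10.44 (-0.30, SE 0.09, adjusted p = 0.73). All 3 probe sets were lower in every Jnk1 KO array than in every control, but only by 0.30 to 0.37 in the last 2. Probe sets of the small RNA genes Snord73a and Snord73b, looked at beside them, were higher by 0.19 (SE 0.15) and 0.80 (SE 0.24). Neither passed as labelled. Snord73b stood at 5.79, 5.85 and 4.67 in Jnk1 KO against 4.41, 4.62 and 4.88 in NEMO f/f, so the groups overlapped. RefSeq also lists the pseudogene copies Rps3a2, on chromosome 14 with Mapk8, and Rps3a3, on chromosome 13, and which copy each probe set reads was not tested. Other genes of the small ribosomal subunit did not pass: of 23 measured, Rps3a1 alone did. As labelled Rps3a1 was also the only member with an unadjusted p under 0.05 (4.35% of the list beside 3.97% of all genes lower). Without replicate 1 there were 5, all lower (21.7% beside 2.87%): Rps3a1, Rps12, Rps15, Rps28 and Rps29, the last 4 by 0.22 to 0.24 in size. The list median was -0.10 as labelled and -0.14 without replicate 1, and the median of 30 large-subunit genes was -0.07 and -0.11. Rps15 (10.10, 9.87 and 10.04 against 10.16, 10.20 and 10.15) differed by -0.17 as labelled and -0.22 without replicate 1.

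**Figure D2:**
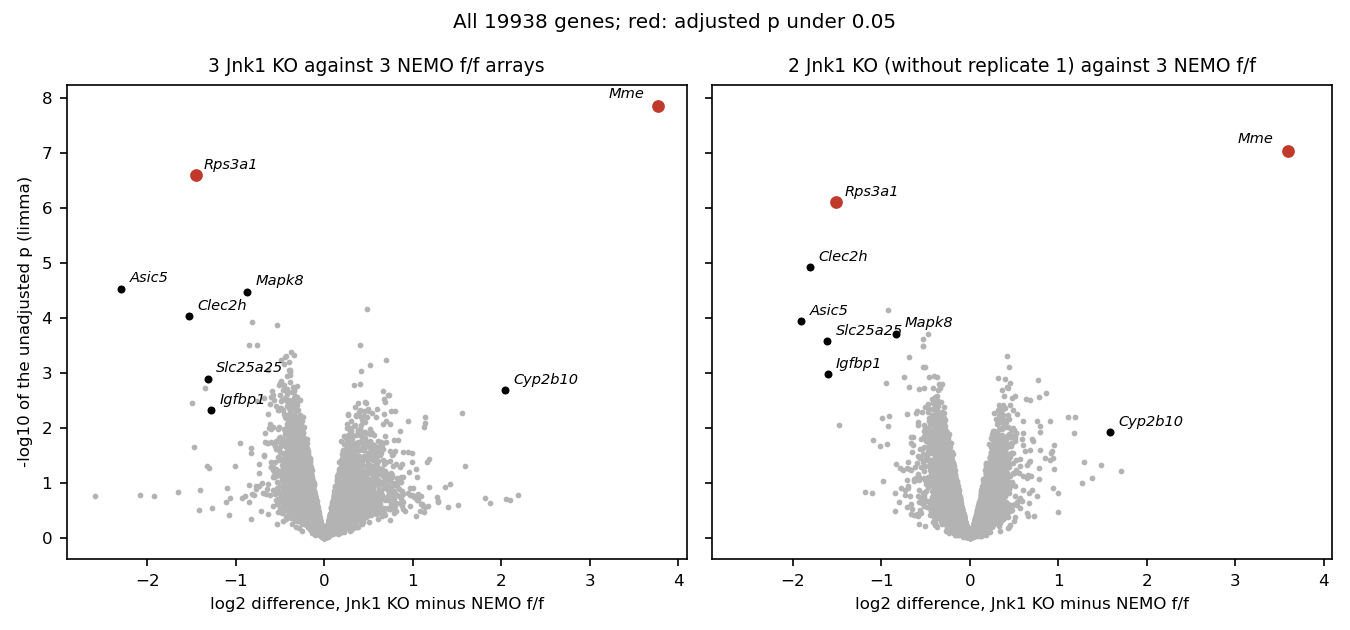
Difference between Jnk1 KO and NEMO f/f (horizontal axis, log2) and -log10 of the unadjusted limma p (vertical axis) for all genes, as labelled on the left and without Jnk1 KO replicate 1 on the right. Mme (3.78 and 3.59) and Rps3a1 (-1.46 and -1.51), in red, are the genes past the threshold in both, and named genes in black missed it.

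Both genes lie on chromosome 3 by RefSeq, and so does Asic5, which has the largest difference among the genes that ranked next. For Rps3a1 this is the place of the gene symbol, as which copy the probe set that passed reads was not tested. Asic5 encodes a bile acid-sensitive sodium channel. It stood at 5.11, 6.34 and 6.23 in Jnk1 KO and at 8.64, 8.06 and 7.87 in NEMO f/f, with no overlap. The difference of -2.29 (SE 0.38) missed the threshold (adjusted p = 0.167), and without replicate 1 it was -1.90 (SE 0.35, adjusted p = 0.458). With Jnk2 KO replicate 3, which also has high Ly6d (9.70) and Mmp12 (8.21), left out of the estimate of the spread, the same differences passed (adjusted p = 0.0173 and 0.00766). Over the other alternatives the adjusted p reached 0.978 as labelled and 1.0 without replicate 1. Asic5 stood at 5.02 to 5.25 in NEMO/Jnk1 DKO, 7.02 to 8.48 in Jnk2 KO, and 6.46 to 7.20 in the NEMO/Jnk2 DKO arrays. The difference between the double knockouts, -1.685 (SE 0.38), missed the threshold (limma adjusted p = 0.182). NEMO/Jnk1 DKO replicates 1 and 2 have the female pattern. Jnk1 KO minus Jnk2 KO was -2.04 (SE 0.38) and missed it too (adjusted p = 0.0628). The NEMO/Jnk2 DKO arrays were also below NEMO f/f. Of 8 genes of the channel family of Asic5, none passed.

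In RefSeq's order, with Rps3a1 placed by its symbol, Mme, Asic5 and Rps3a1 span a stretch of 87 tested genes. The stretch was bounded by these genes, so they are left out of its count. Of the 84 others 7 (8.33%) had an unadjusted p under 0.05 as labelled, beside 5.58% of all genes, and 4 (4.76%) without replicate 1, beside 4.29%. The median difference over the stretch was 0.02 as labelled, and apart from these 3 genes no difference exceeded 0.53 in size. On chromosome 3 as a whole 3 of 943 genes (0.318%) had an unadjusted p under 0.001 as labelled and 4 (0.424%) without replicate 1. Over all genes these counts were 25 (0.125%) and 16 (0.0802%). Those on chromosome 3 were Mme, Rps3a1 (by its symbol) and Asic5 themselves, joined by Bche without replicate 1. The first 3 drew attention to this chromosome, so its count is not separate support. Mapk8 itself lies on chromosome 14, where it was the only gene of 698 with an unadjusted p under 0.001 in either setting.

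The genes that ranked next missed the threshold, and their values are given as a description. Of the 10 genes higher in Jnk1 KO with the lowest p, Cyp2b10 had the largest difference after Mme. This xenobiotic-induced cytochrome P450 stood at 6.52, 5.93 and 4.33 in Jnk1 KO and at 3.82, 3.71 and 3.10 in NEMO f/f (2.05, SE 0.54, adjusted p = 0.86). The Jnk1 KO arrays spread over more than 2 log2 units, and without replicate 1 the difference was 1.58 (SE 0.54, adjusted p = 1.0). The remaining 8 differed by 0.34 to 0.74 as labelled and by 0.35 to 0.64 without replicate 1. Dcbld1, a membrane protein gene, stood at 5.54, 5.43 and 5.28 against 4.83, 5.03 and 4.95 (adjusted p = 0.271, and 0.779 without replicate 1). Odc1, ornithine decarboxylase, the entry enzyme of polyamine synthesis, stood at 8.45, 8.39 and 7.68 against 7.62, 7.35 and 7.54, with replicate 3 close to the controls. Has2 (hyaluronan synthase), Banp, Vps37c, Hpf1, Klrc1 and Haus8 complete this set. The Jnk2 KO and double knockout arrays also lay above every NEMO f/f array for Dcbld1 (5.35 to 5.49) and Hpf1 (5.45 to 5.93). Haus8 (3.941 to 4.745) and Cyp2b10 (3.865 to 7.067) showed this too, Cyp2b10 only just in its lowest array. These differences were therefore not particular to Jnk1 KO.

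On the lower side Clec2h, a C-type lectin gene, stood at 4.73, 4.22 and 3.55 in Jnk1 KO and at 5.62, 5.27 and 6.18 in NEMO f/f. Its difference was -1.52 (SE 0.28, adjusted p = 0.307) as labelled and -1.81 (SE 0.27, adjusted p = 0.0782) without replicate 1. Leaving out NEMO f/f replicate 2 as well brought it to -2.02 and past the threshold (adjusted p = 0.0438), while its other alternatives without replicate 1 missed it. Clec2h was below NEMO f/f in every knockout group, so this was not particular to Jnk1 KO. It stood at 2.99 to 3.32 in Jnk2 KO, 4.08 to 4.88 in NEMO/Jnk1 DKO and 3.26 to 3.38 in NEMO/Jnk2 DKO. Praf2 stood at 4.81, 4.63 and 4.34 against 5.17, 5.76 and 5.31. Tpmt, thiopurine methyltransferase, stood at 9.26, 9.23 and 9.38 against 9.81, 9.91 and 10.43. Trp53inp1, a stress-response gene regulated by p53, stood at 8.53, 8.70 and 8.95 against 9.38, 9.47 and 9.24. The differences of Praf2, Tpmt and Trp53inp1 were -0.82, -0.76 and -0.64 as labelled and -0.93, -0.75 and -0.54 without replicate 1. Genes in these sets were taken among those without overlap between the groups, so the lack of overlap is not a result. Kcnk10 (-0.85 and -0.69), Smim27 (-0.49 and -0.36) and the DNA glycosylase gene Nthl1 (-0.45 and -0.53 without replicate 1) also belong to the 10 lower genes with the lowest p. In the Jnk2 KO and double knockout arrays Kcnk10 (3.28 to 3.73) and Nthl1 (4.11 to 4.51) were below every NEMO f/f array too. The same held for Smim27 (5.97 to 6.35). Praf2 (5.145 to 5.226), Tpmt (9.73 to 10.14) and Trp53inp1 (9.11 to 9.46) were nearer the controls in Jnk2 KO. In NEMO/Jnk2 DKO, however, Praf2 stood at 4.558, 4.638 and 4.945, close to its Jnk1 KO values. Tpmt stood at 9.883 to 9.965 and Trp53inp1 at 9.12 to 9.43 in those arrays.

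Without replicate 1 the lower set gained Slc25a25, Bche, Ndrg1 and Sdc1. Slc25a25, a mitochondrial ATP-magnesium/phosphate carrier, stood at 7.90 and 7.75 in replicates 2 and 3, at 8.69 in replicate 1 and at 9.26 to 9.63 in NEMO f/f. Its difference was -1.61 (SE 0.33, adjusted p = 0.591), and -1.32 as labelled. In a fit to only the 5 compared arrays it passed (adjusted p = 0.039). Sdc1, syndecan-1, stood at 8.31 and 8.28 against 8.73 to 8.94, but at 9.66 in replicate 1. Bche, butyrylcholinesterase, stood at 8.25 and 8.40 against 8.75 to 8.96, with 9.24 in replicate 1. For Sdc1 and Bche, replicate 1 was above the controls and replicates 2 and 3 below them.

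Of 25 kinases, scaffolds and phosphatases of the JNK pathway that were measured, none passed in either direction. As labelled 2 had an unadjusted p under 0.05, both lower (8% beside 3.97% of all genes): Mapk8 and Mapk8ip1, a JNK scaffold, at 4.37, 4.32 and 4.47 against 4.64, 4.66 and 4.45. The scaffold Mapk8ip3 stood at 6.37, 6.31 and 5.95 against 5.79, 6.21 and 5.84. Dusp16, a phosphatase that acts on JNK, stood at 7.32 to 7.52 against 7.46 to 7.69. The upstream kinase Map3k1 stood at 6.61, 6.05 and 5.41 against 6.15 to 6.18, so that it was low in replicate 3 and high in replicate 1. Without replicate 1 there were also 2, both lower (8% beside 2.87%): Mapk8 and Map3k1 (-0.43). Mapk8 is the deleted gene, so its place in both counts follows from the design, and these shares are no result about the pathway. The median difference of the list was -0.03 as labelled and -0.06 without replicate 1, beside -0.03 over all genes in each.

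None of 20 AP-1 and immediate early genes passed, and their levels differed widely between mice of the same group. Jun stood at 7.98, 6.28 and 5.69 in Jnk1 KO and at 6.43, 7.51 and 5.89 in NEMO f/f. Fos stood at 5.03, 3.97 and 4.61 against 4.79, 5.78 and 4.19. The mean of the list, taken relative to the NEMO f/f mean, was 0.43, -0.20 and -0.17 in the Jnk1 KO arrays and ranged from -0.28 to 0.37 in the controls. Fosl1 alone had an unadjusted p under 0.05 (-0.31, adjusted p = 0.86), lower as labelled and also without replicate 1 (-0.38). That is 5% of the list in each setting, beside 3.97% and 2.87% of all genes. Of 22 NF-kB pathway genes and targets none passed. Nfkbia, the inhibitor IkB-alpha, stood at 7.10, 7.69 and 7.62 against 7.80, 8.38 and 8.04, a difference of -0.60 (SE 0.22, adjusted p = 0.86), and of -0.42 (SE 0.23, adjusted p = 1.0) without replicate 1.

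Among the metabolic lists, genes of cholesterol synthesis and uptake were those most often at low p. No member passed, and all 20 measured members had a difference below 0, whereas 8452 of all 19938 genes were above 0. The list median was -0.35 as labelled and -0.33 without replicate 1, beside -0.03 over all genes in each. As labelled 8 of 20 (40%) had an unadjusted p under 0.05, all lower, and without replicate 1 there were 6 (30% beside 2.87% of all genes). For 13 of 20 the arrays of the groups did not overlap, where 6.21% of all genes lay lower without overlap, and without replicate 1 for 14 of 20, where 12.2% did. Cyp51, lanosterol demethylase, stood at 8.51, 8.09 and 8.73 in Jnk1 KO and at 8.96, 9.11 and 8.98 in NEMO f/f (-0.57, SE 0.16, adjusted p = 0.86; -0.60 without replicate 1). Sqle, squalene epoxidase, stood at 8.96, 8.49 and 8.96 against 9.18, 9.34 and 9.12. Hsd17b7 stood at 9.03, 8.96 and 8.95 against 9.37, 9.61 and 9.50. Replicate 2 was the lowest of the 3 in Cyp51 and Sqle.

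Relative to the NEMO f/f mean, the mean of the cholesterol list was -0.37, -0.49 and -0.17 in Jnk1 KO. The Jnk2 KO arrays had -0.33, -0.34 and -0.07. NEMO/Jnk2 DKO arrays had -0.41, -0.37 and -0.18, and NEMO/Jnk1 DKO arrays 0.16, 0.01 and -0.29. The NEMO f/f arrays themselves were at -0.08, 0.13 and -0.05. Low values were also seen in Jnk2-null livers, and the NEMO/Jnk1 DKO arrays lay on both sides of 0. No test of these list means was made.

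**Figure D3:**
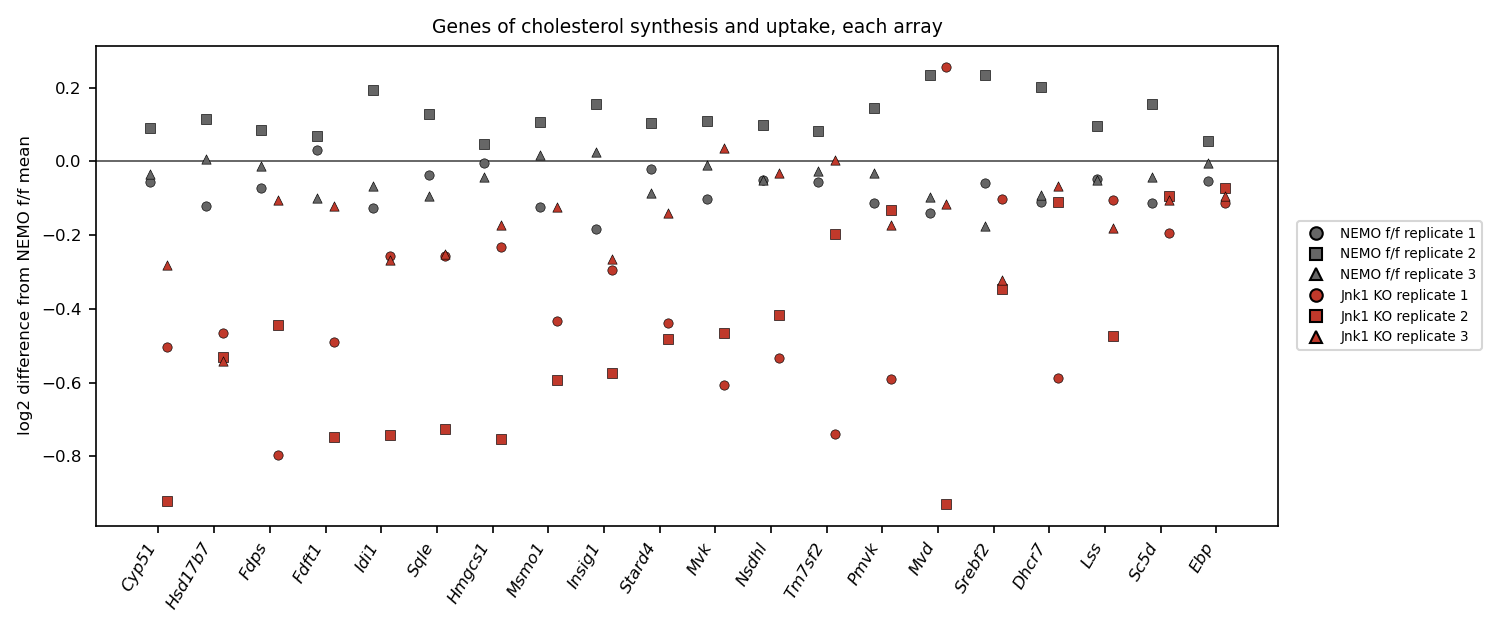
Difference of each Jnk1 KO (red) and NEMO f/f (grey) array from the NEMO f/f mean (vertical axis, log2) for the 20 genes of cholesterol synthesis and uptake (horizontal axis), sorted by the difference as labelled. The Jnk1 KO points lie mostly below 0, with Cyp51 (-0.57) at the left end and Ebp (-0.09) at the right.

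Other metabolic genes gave scattered low p-values. Igfbp1, a secreted growth factor-binding protein that insulin lowers, stood at 9.36, 8.44 and 8.33 in Jnk1 KO and at 9.61, 10.29 and 10.07 in NEMO f/f. The difference was -1.28 (SE 0.38, adjusted p = 0.86), and -1.61 (SE 0.39, adjusted p = 1.0) without replicate 1. Csad, an enzyme of taurine synthesis, stood at 7.97, 8.79 and 9.67 against 10.03, 10.26 and 10.18, so that the Jnk1 KO arrays differed widely among themselves. The difference was -1.34 as labelled and -0.93 without replicate 1. Csad was also low in the Jnk2 KO and double knockout arrays, at 7.75 to 8.86. Dnajb9, a chaperone of the endoplasmic reticulum, stood at 9.34, 8.51 and 8.43 against 7.77, 7.15 and 7.94 (1.14, SE 0.36, adjusted p = 0.86; 0.85 without replicate 1). Usp2, a deubiquitinase with a daily rhythm in liver, stood at 5.44, 4.94 and 4.97 against 4.32, 4.59 and 4.40. It was also above the controls in the Jnk2 KO and double knockout arrays, at 4.64 to 5.39. Thrsp, a gene of lipid synthesis, was at 10.38 and 10.31 in replicates 2 and 3 and 9.30 to 9.64 in the controls, but at 8.20 in replicate 1. None of the lists of fatty acid synthesis (23 measured), lipid droplets (23), fatty acid oxidation (24), bile acids (23) or drug metabolism (22) had a member that passed.

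Replicate 1 stood apart in several lists. Hepatocyte markers had a mean level of 11.6 to 11.7 in Jnk1 KO and 11.7 to 11.8 in NEMO f/f, and none of 14 passed. Cell cycle genes had a list mean of 2.24 above the NEMO f/f mean in replicate 1 and of -0.10 and 0.04 in replicates 2 and 3. Mki67, a proliferation marker, stood at 7.30, 4.03 and 4.33 in Jnk1 KO and at 3.86 to 4.46 in NEMO f/f. The list median was 0.77 as labelled and -0.04 without replicate 1, and none of the 25 genes passed. Monocyte and macrophage markers stood at a mean level of 6.48, 5.02 and 4.96 in Jnk1 KO against 4.85 to 5.08 in NEMO f/f. Stellate cell and matrix genes stood at 8.10, 6.56 and 6.65 against 6.78 to 6.86. Their list median was 0.29 as labelled and -0.19 without replicate 1, where 15 of 18 genes were below 0. For 7 of them the arrays then did not overlap, beside 12.2% of all genes, and none had an unadjusted p under 0.05. Mki67 and Col1a1 were picked as examples after their values were seen, with Col1a1 at 9.10 in replicate 1 and 5.90 and 6.65 in the others. In whole liver, more cells of a type and more RNA per cell cannot be told apart.

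Sex-dependent liver genes split the Jnk1 KO arrays in the same way. Female-biased genes had a list mean of 3.26 in replicate 1, -0.03 in replicate 2 and -0.01 in replicate 3, and male-biased genes -2.54, 0.43 and -0.09. Cyp2b9, a cytochrome P450 of female liver, stood at 10.59, 3.94 and 3.94. Hsd3b5, a steroid dehydrogenase of male liver, stood at 2.69, 10.22 and 10.31. With a term for sex, read from Xist, in the fit, Mme and Rps3a1 again were the 2 genes that passed.

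**Figure D4:**
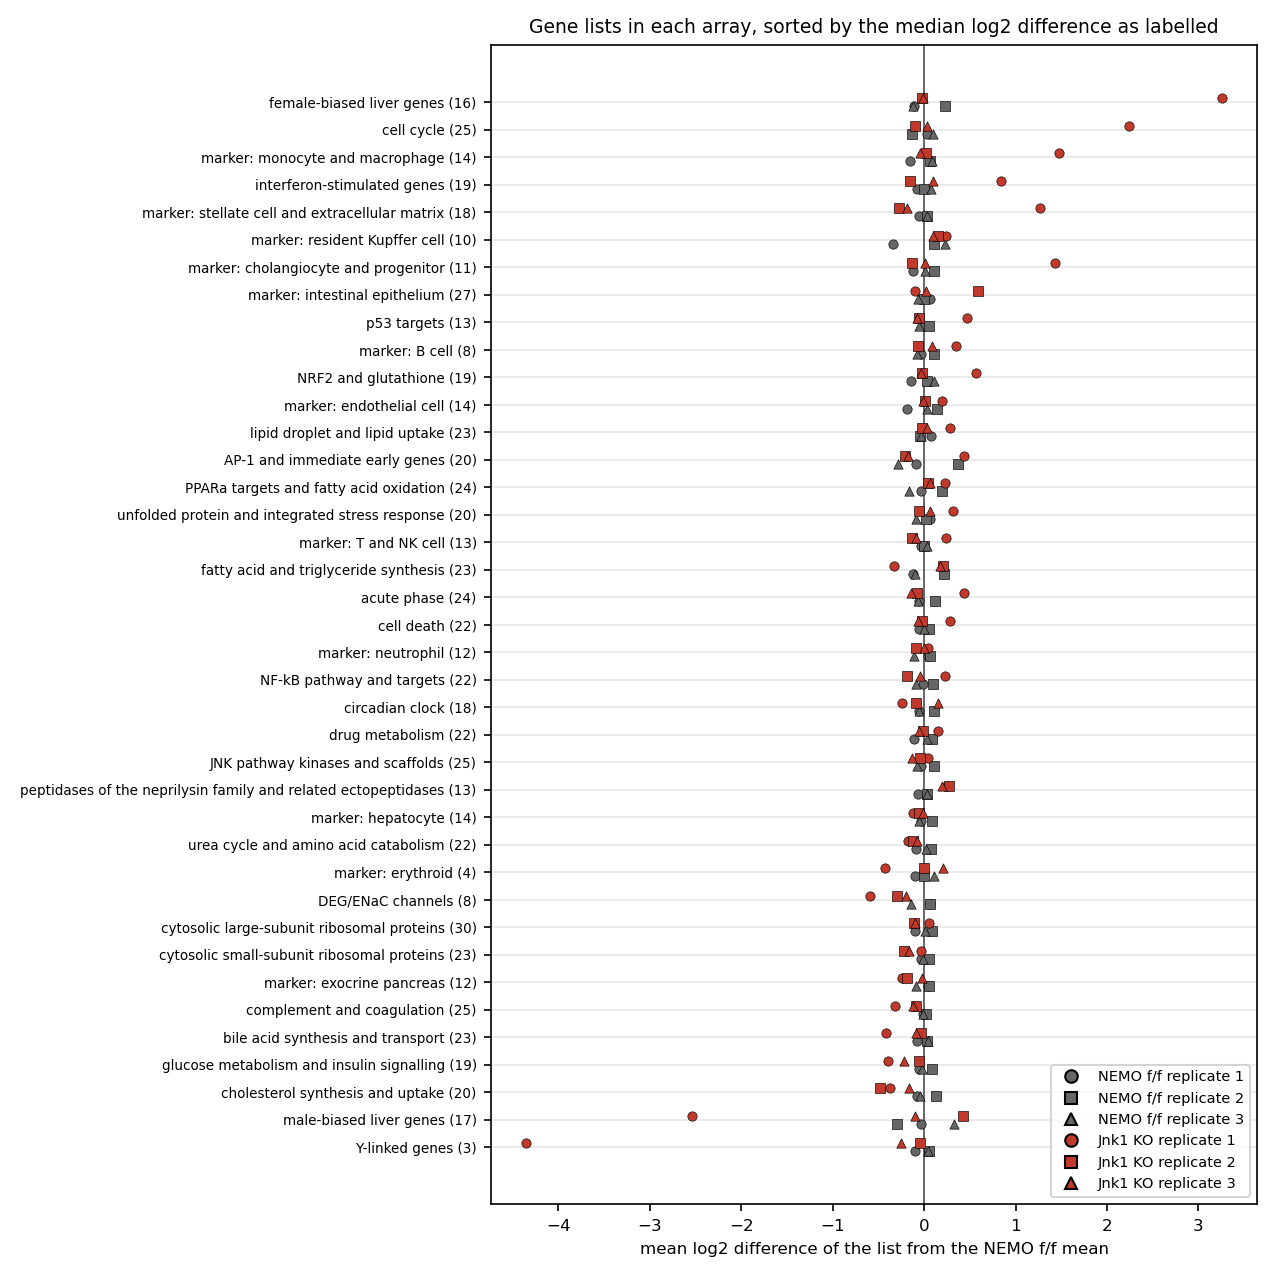
Mean difference of each gene list from the NEMO f/f mean (horizontal axis, log2) in the 3 Jnk1 KO (red) and 3 NEMO f/f (grey) arrays, with the number of genes measured in parentheses. Jnk1 KO replicate 1 (red circle) stands apart at 3.26 for female-biased and 2.24 for cell cycle genes, where replicates 2 and 3 lie near 0.

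Jnk1 KO replicate 2 held some, but not all, listed genes of intestinal epithelium at levels not reached in the other 14 arrays. The 28 genes of this list were chosen after their values were seen, so the counts are a description. Reg3g, an antimicrobial lectin of the gut, stood at 4.90 in replicate 2 and at 2.19 to 2.81 in the 14 other arrays. Reg3b stood at 4.72 against 2.28 to 2.72, the mucin Muc2 at 4.93 against 3.22 to 3.78, Muc3 at 4.10 against 2.22 to 2.87 and the gut hormone precursor Guca2a at 4.63 against 3.14 to 3.74. Of 27 genes measured, 15 were highest in this array, and 10 of those by more than 0.5 log2 units over the next. Other epithelial markers were not raised: Vil1 stood at 3.60 against 3.08 to 3.73, and Fabp2 at 7.89 against 7.77 to 8.17 in NEMO f/f. Cdx1 (5.577 against 5.576 to 6.012) and Cdx2 (3.135 against 2.953 to 3.448) were within the range of the other arrays. So were Olfm4 (2.97 against 2.68 to 3.71) and Tff3 (6.57 against 5.04 to 8.09). The tissue that these transcripts came from was not tested. Exocrine pancreas genes were not raised either, with a list mean of -0.18 relative to NEMO f/f.

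These transcripts enter the comparison without replicate 1, where replicate 2 is 1 of 2 Jnk1 KO arrays. Muc2 (0.86, adjusted p = 1.0) and Clca1 (0.77, adjusted p = 1.0) were then among the 10 higher genes with the lowest p. With replicate 3 left out as well, replicate 2 alone stood for Jnk1 KO and was assumed to vary like the other groups. What stood out in that fit, beside Mme and Snord73b, were Reg3g, Reg3b, Guca2a, Muc2, Muc3, Clca4b and Defa24 of the intestinal list. The intestinal list was chosen after its values were seen, so this overlap was fixed in advance and is no support. Kctd1, Kcnv1, Gpx7, Foxb1 and Relt, the rest of the 10 higher genes that were not among the 10 as labelled, differed by 0.40 to 0.52. Gpx7 was also above every NEMO f/f array in the Jnk2 KO and double knockout arrays (4.76 to 5.33). Mme does not follow this pattern: it was 7.46 in replicate 2, between the 7.39 and 7.98 of the other Jnk1 KO arrays.

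**Figure D5:**
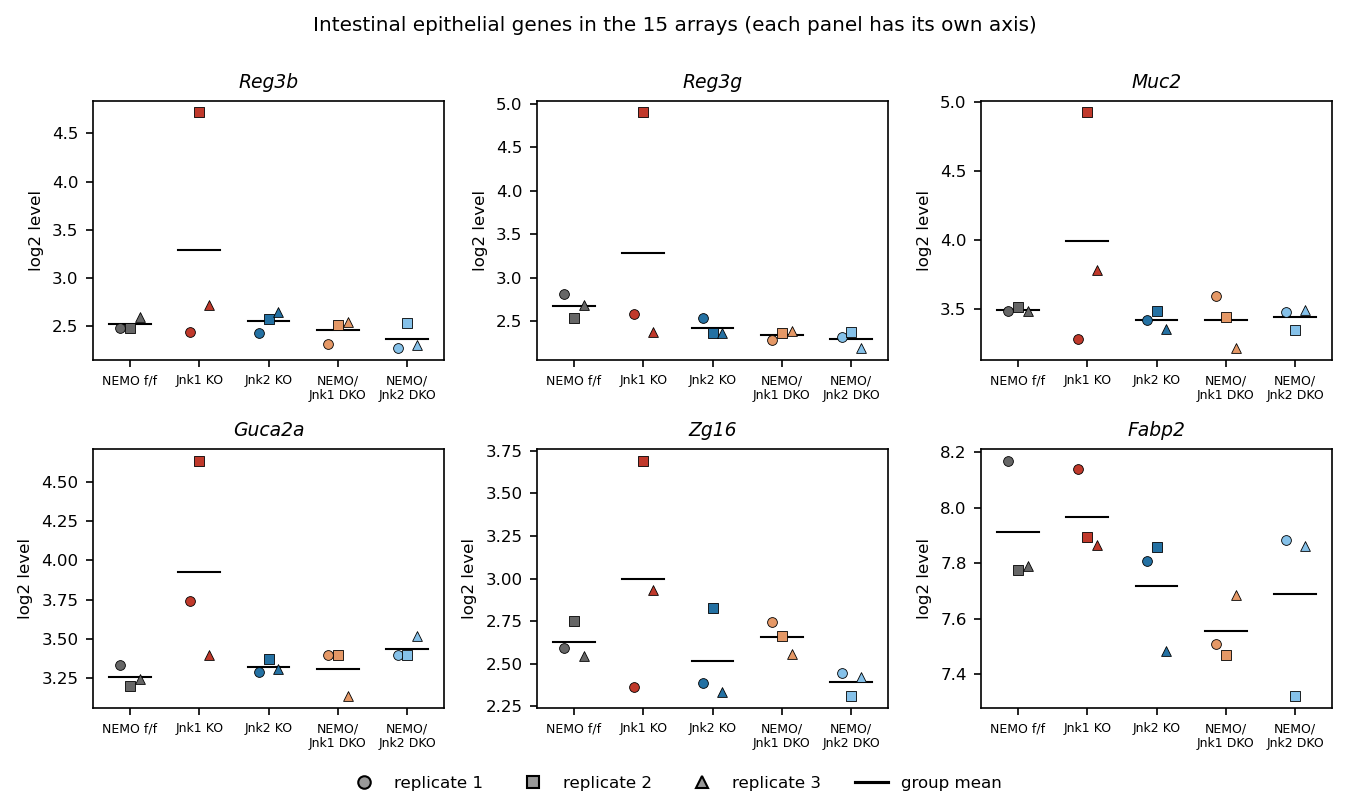
Log2 level (vertical axis, separate for each panel) of Reg3b, Reg3g, Muc2, Guca2a, Zg16 and Fabp2 in the 15 arrays by group (horizontal axis), with group means as bars. Jnk1 KO replicate 2 (red square) is the highest array for all but Fabp2, with Reg3g at 4.90 against at most 2.81 elsewhere.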

How the data were processed

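The authors deposited log2 expression values per probe set, made with RMA per the submitters' processing notes (version, array annotation and genome build not given in the sources used here). Of 35556 probe sets, 21789 carried 1 gene symbol, 1621 several and 12146 none. The probe set with the highest mean stood for each of 19938 genes. Group means of all 15 arrays (or 14, without Jnk1 KO replicate 1) were fitted with limma 3.58.1 in R 4.3.3 (lmFit, eBayes), with Benjamini-Hochberg adjustment over all genes. Array medians lay between 4.26 and 4.38, and 3 arrays per group limit the precision. Named genes were Mapk8, Mapk9, Ikbkg, Ly6d, Mmp12, Xist and Y-linked genes, those that passed, in each setting the 10 in each direction with the lowest p among genes without overlap, and up to 4 members per list. Provisional models, small RNAs and pseudogenes were not named by that rule. The gene lists (37, with 637 of 725 genes measured, and 2 added after values were seen) and tests were chosen with earlier results of these data known. Probe sets outside the gene table (13767) gave 0 that passed in either setting by limma (864 and 781 with an unadjusted p under 0.05). The code was tested on simulated data.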

Additional observations from a re-analysis of the deposited data

How the results depend on the processing

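The number of genes that passed, 2 in both settings, stayed between 2 and 3 under all alternatives but those named here. As labelled, the fit to only the 6 compared arrays gave 0 (667 genes with an unadjusted p under 0.05). Leaving out each array in turn gave 2 to 3 genes as labelled and 2 to 9 without Jnk1 KO replicate 1, with 9 where replicate 2 was the last Jnk1 KO array. With replicate 3 as the last Jnk1 KO array the 2 genes were Dbp and Mme. Replicate numbers did not pair the arrays: deviations from the group means correlated at -0.04, -0.01 and -0.22 between same-numbered arrays. A replicate block left 2 genes in both settings. A sex term without replicate 1 gave 3, with Mapk8 (-0.83, adjusted p = 0.0493); that term rests on NEMO/Jnk1 DKO replicates 1 and 2, the remaining arrays with the female pattern, and so does not change the Jnk1 KO difference, only its error. Among named genes under alternatives, 906 values kept direction and call and 6 changed sign. Leaving out arrays in turn, Mmp12 ranged from -0.57 (without Jnk1 KO replicate 1) to 1.90, and Sdc1 from -0.53 to 0.16 (0.15 and 0.16 without Jnk1 KO replicates 2 and 3). Kdm5d, compared without replicate 1, ranged from -0.17 to 0.12 (0.12 without replicate 3, 0.08 without NEMO f/f replicate 3) and was 0.0013 with centred arrays. The cause was not tested. None of these is a gene that passed. List medians moved beyond the spread between arrays in 4 cases and did not in 329. The median SE over all genes was 0.124 as labelled and 0.133 without replicate 1, with 3 and 2 Jnk1 KO arrays.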
